A study of Homo sapiens with 3 samples.

Results

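Transcripts of the Notch pathway were followed in RNA-Seq of 5637 cells, a human bladder cancer cell line, in the parental line (5637P) and in a derivative with gemcitabine resistance (5637GR). The genes were the receptors NOTCH1, NOTCH2 and NOTCH3, the ligands JAG1, JAG2 and DLL1, and the targets HES1, HEY1 and NRARP. These 9 genes were taken by symbol from the deposited table of 29960 genes, where they fill 10 rows because JAG1 has 2. The labels give the parental cells the genotype WT and the derivative the genotype Gemcitabine Resistant, and list both as untreated. Gemcitabine is a deoxycytidine analog that blocks DNA synthesis. By the paper's methods, resistance was selected with repeated and increasing exposure, whereas the treatment protocol in the labels speaks of acute treatment, and the resistant cells were later kept without drug. RNA came from single-cell clones, 3 per group by the series' design. Libraries with a sample label numbered 3, with 1 of 5637P and 2 of 5637GR, so that each stands for a clone and the parental side has no spread of its own.

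Notch receptors are read out by contact between cells. A ligand of the Jagged or Delta-like family on a neighbouring cell binds the receptor, which is then cut by ADAM proteases and by γ-secretase. The released intracellular part enters the nucleus, joins RBPJ and a Mastermind coactivator, and switches on repressors of the HES and HEY families and NRARP, a feedback inhibitor. In stratified epithelia the pathway takes part in the balance between basal growth and differentiation.

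RBPJ binds DNA with the core letters TGGGAA, and the promoter of HES1, the classic target, is shown because it holds these letters 2 times. The 250 bases before the RefSeq start of HES1 (GRCh38.p14, chr3:194135898-194136147, plus strand) are printed with the TGGGAA matches in capitals.
HES1: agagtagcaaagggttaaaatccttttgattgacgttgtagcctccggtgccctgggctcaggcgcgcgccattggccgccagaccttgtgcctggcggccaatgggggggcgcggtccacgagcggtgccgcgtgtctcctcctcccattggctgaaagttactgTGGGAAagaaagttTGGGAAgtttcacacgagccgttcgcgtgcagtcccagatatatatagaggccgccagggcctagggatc
The matches begin 84 and 70 bases before the start, both on the plus strand. Both strands were searched for TGGGAA or its reverse complement TTCCCA, which do not overlap each other. Of 35116 RefSeq promoters of this length, 20.8% held at least 1 match and 2.90% at least 2. Among the 7 genes of the set found in that table, HES1 was the only promoter with a match in this window. DLL1 and HEY1 were not searched. A match describes the letters and not an occupied site, since binding was not measured. Variants of these letters were not searched, so the matches in HES1 are not shown to be a pair of RBPJ sites.

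Reads counted on genes were 14475531 in 5637P and 15836788 and 17461941 in 5637GR libraries 1 and 2. Levels within a gene are given as CPM (the share of a gene among all reads of a library) after scaling by edgeR's trimmed mean of M values (TMM). Levels between genes are given as the deposited FPKM, which divides by gene length. Of 11 urothelial and epithelial markers, 9 were at 1 FPKM or more in every library, while UPK2 reached at most 0.593 FPKM and UPK3A, a protein of the terminal urothelial surface, had no read. Of the fibroblast markers, COL1A1 and COL1A2 were read at 9.05 to 16.3 FPKM and LUM had no read. The leukocyte and endothelial markers that were found had at most 20 reads. The fibroblast marker DCN and the endothelial marker PECAM1, also listed, were not found among the deposited genes. The edgeR quasi-likelihood test was fitted to all 15643 genes with enough reads, under the assumption that the parental clone varies like the resistant clones. With 3 libraries a permutation of the samples cannot give a p below 0.333, so none was used for single genes.

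The receptor NOTCH3 was lower in both labelled 5637GR libraries than in the 5637P library, and it was the only gene of the 9 to pass the test. In this comparison 137 of 15643 genes were called at an adjusted p under 0.05 in either direction, or 0.876%, and 0.582% were called as lower. NOTCH1 and NOTCH2 were higher in both 5637GR libraries and did not pass. The ligands JAG1 and JAG2 were lower in both, without passing, and DLL1 was higher in both. HES1, HEY1 and NRARP differed from 5637P by at most 1.58-fold in either 5637GR library, and none of them passed. With 1 residual degree of freedom, a gene that did not pass is not shown to be the same in both groups. Of the 9 genes, 4 were higher and 4 lower in both 5637GR libraries, where 35.2% and 34.5% of all tested genes were. The median log2 change of the 9 was 0.02, beside 0.03 over all tested genes.

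**Figure D1:**
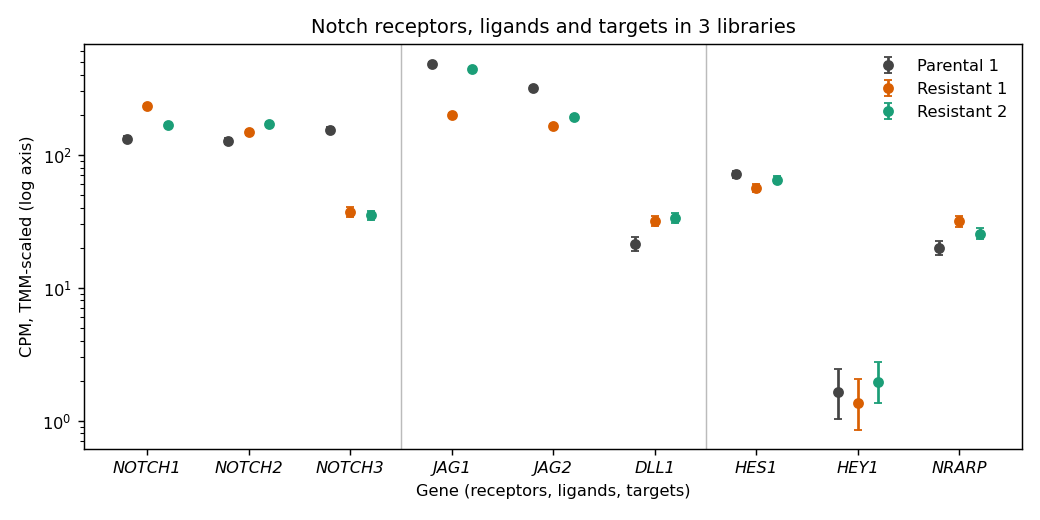
TMM-scaled CPM on a log axis for the 9 genes in the 5637P library and 5637GR libraries 1 and 2, with bars for the exact 95% Poisson interval of the reads. NOTCH3 lies at 154 CPM in 5637P and at 37.1 and 35.1 CPM in the 5637GR libraries, while JAG1 differs most between the resistant pair, at 199 and 439 CPM.

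NOTCH3 (ENSG00000074181, chromosome 19, 15270444 to 15311792, minus strand, hg19) encodes a receptor best known from vascular smooth muscle that is also made by epithelial cells. It had 2170 reads in 5637P and 607 and 610 in the 5637GR libraries. On the CPM scale this was 154 against 37.1 and 35.1, and the counting intervals of the parental and 5637GR libraries did not overlap. The 5637GR libraries were close to each other, at 36.1 ± 1.41 CPM (SD, n = 2), with a ratio of library 2 to library 1 of 0.946 (95% interval 0.844 to 1.06, exact, counting error only). The log2 change was -2.09 ± 0.33 (SE), a 4.26-fold lower level, with an adjusted p of 0.021 in edgeR's quasi-likelihood test. It was also the only gene of the 9 called with DESeq2, where 1.63% of genes were called. The same held with DESeq2 size factors in edgeR, where 1.5% were called, and without a filter on low counts, where 2.02% were. All these settings used the same 3 libraries, so they do not bear on the clones without a label. The counting intervals hold counting error only. Without molecular identifiers, reads may not be independent molecules, and the intervals are then too narrow.

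The authors' group means, which also hold clones without a label here, gave a smaller difference for NOTCH3. The mean was 2015 normalized counts in the parental group and 928.0 in the resistant group, a log2 ratio of -1.12, or 2.17-fold lower. After a pseudocount of 1, 6.36% of the 14630 genes with a mean of at least 10 differed by 2-fold or more between the group means, and 3.15% were lower by that much. NOTCH3 was the only gene of the 9 past 2-fold, and at 1.5-fold JAG1 joined it, beside 18.6% of all genes. Both labelled 5637GR libraries lay below the mean of their group, at 0.585 and 0.556 of it, and 5637P lay at 1.11 of its group mean. These ratios were set so that the median gene is at 1, and 9.21% and 12.4% of genes in 5637GR libraries 1 and 2 were 1.5-fold or more away from the group mean. A group mean above both libraries implies a higher NOTCH3 level among the resistant clones without a label here. The 4.26-fold lower level thus describes the labelled 5637GR libraries, and is not shown for the resistant group as a whole. KRT5, a basal keratin among the epithelial markers, fell along with NOTCH3 in the libraries, from 104.5 FPKM in 5637P to 3.99 and 5.43 FPKM, with a log2 change of -4.52 ± 0.38 (SE; adjusted p = 0.0006, edgeR). The other 8 tested markers of that list did not pass. The summed level of the list was 5407 FPKM in 5637P and 4333 and 4627 FPKM in the 5637GR libraries. Group means were not taken for these markers, so their levels in the clones without a label are not shown. The part of these differences in the NOTCH3 result was not tested. The deposited means carry no error, so the ratio of the means has no test.

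NOTCH1 (ENSG00000148400, chromosome 9, 139388896 to 139440314, minus strand) encodes the receptor that promotes differentiation in stratified epithelia. It had 1860 reads in 5637P and 3793 and 2922 in the 5637GR libraries, or 132 CPM against 232 and 168 CPM. Both 5637GR libraries were above 5637P, by 1.76-fold and 1.27-fold, and the pair differed from each other beyond counting error (ratio 0.726, 95% interval 0.691 to 0.762). Its log2 change was 0.60 ± 0.39 (SE), with an adjusted p of 0.713 (edgeR). In the group means the ratio was smaller, at 2476 normalized counts in the parental and 2692 in the resistant group, which is 0.12 on the log2 scale. Of its group mean, the 5637P library held 0.775.

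NOTCH2 (ENSG00000134250, chromosome 1, 120454176 to 120612240, minus strand), a widely expressed receptor, was read at 127 CPM in 5637P and at 148 and 169 CPM in the 5637GR libraries. On the log2 scale the change was 0.32 ± 0.36 (SE; adjusted p = 0.898, edgeR), and the log2 ratio of the group means was 0.04. Its partial copy NOTCH2NL had 61, 86 and 127 reads in the same order, and how reads shared by the copies were assigned is not given in the sources used here. The level of NOTCH2, counted from 1786, 2415 and 2940 reads, is uncertain to that extent.

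The makeup of the receptor pool followed from these levels. Per length, NOTCH3 made up 43.0% of the summed FPKM of the receptors in 5637P, and 10.8% and 11.7% in the 5637GR libraries. NOTCH1 made up 31.8% in 5637P and 58.3% and 48.1% in the 5637GR libraries, and NOTCH2 25.1% against 30.5% and 39.8%. The sum of receptor FPKM differed less than these shares, at 43.2 in 5637P and 43.8 and 37.1 in the 5637GR libraries. NOTCH3 had 1.35 times the FPKM of NOTCH1 in 5637P, and 0.186 and 0.242 times in the 5637GR libraries. With the group means divided by gene length, the NOTCH3 share was 35.2% in the parental and 19.0% in the resistant group. The order of NOTCH1 and NOTCH3 was thus reversed between the labelled libraries, while in the parental group mean NOTCH3 was at 0.945 of NOTCH1.

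**Figure D2:**
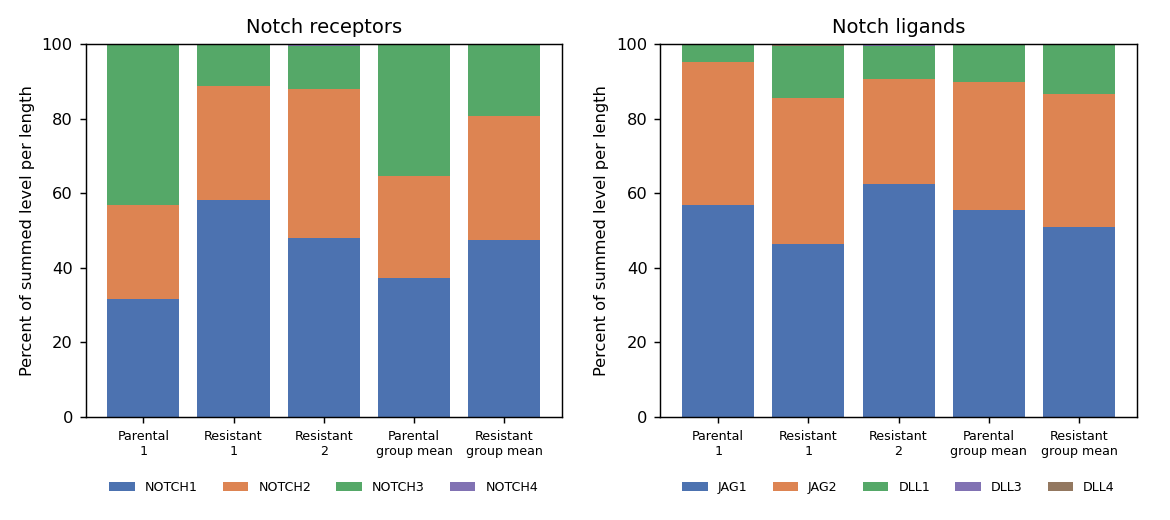
Share of each receptor (left) and each canonical ligand (right) in the summed level per gene length, in percent, for the 3 labelled libraries (FPKM) and for the authors' group means divided by gene length. NOTCH3 takes 43.0% of receptor FPKM in 5637P and 10.8% and 11.7% in the 5637GR libraries, and JAG1 and JAG2 together make up most of the ligand level in every bar.

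JAG1 (ENSG00000101384, chromosome 20, 10618332 to 10654694, minus strand), a Jagged ligand, had the most reads of the set in 5637P and 5637GR library 2, and was behind NOTCH1 in library 1. It was counted with 6813 reads in 5637P and 3261 and 7619 in the 5637GR libraries, or 483 CPM against 199 and 439 CPM. Resistant library 1 was at 0.412 of the parental level, whereas library 2 was at 0.907 of it. The resistant pair was 2.20-fold apart (95% interval 2.11 to 2.29), and 12.0% of tested genes were 2-fold or more apart between these libraries. The SD of the pair, at 319 ± 169 CPM (SD, n = 2), exceeded the distance of its mean from 5637P. The log2 change of -0.60 ± 0.46 (SE) had an adjusted p of 0.785 (edgeR). Without 5637GR library 1 the value was -0.14, and without library 2 it was -1.28. The group means were 7787 and 4730 normalized counts in the parental and resistant group, a log2 ratio of -0.72. The second row named JAG1 (ENSG00000270408), a processed transcript inside the gene and on the same strand, had 6 reads in 5637P and 2 and 4 in the 5637GR libraries, and was too low to be tested.

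JAG2 (ENSG00000184916, chromosome 14, 105607318 to 105635161, minus strand), the other Jagged ligand, was lower in both 5637GR libraries. It had 319 CPM in 5637P, from 4496 reads, and 164 and 193 CPM in the 5637GR libraries, from 2690 and 3356 reads. The 5637GR libraries, at 179 ± 20.3 CPM (SD, n = 2), were nearer to each other than to 5637P. This gave a log2 change of -0.83 ± 0.35 (SE; edgeR, adjusted p = 0.476, unadjusted p = 0.040). At an unadjusted p under 0.05, 9.7% of all tested genes were called, and of the 9 genes these were NOTCH3 and JAG2. In the group means JAG2 was at 4720 against 3229 normalized counts, a log2 ratio of -0.55.

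DLL1 (ENSG00000198719, chromosome 6, 170591294 to 170599561, minus strand), a Delta-like ligand, had opposite signs in the labelled libraries and in the group means. It was read at 21.3 CPM in 5637P, from 300 reads, and at 31.5 and 33.5 CPM in the 5637GR libraries, from 516 and 581 reads. edgeR gave a log2 change of 0.61 ± 0.37 (SE; adjusted p = 0.682). The group means were 746.0 in the parental and 637.3 in the resistant group, a log2 ratio of -0.23. The 5637P library held 0.415 of the mean of its group for this gene, while 4.91% of genes were 1.5-fold or more away from that mean. Opposite signs of the libraries and the group means were found for 15.8% of tested genes.

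The ligand pool was made up mostly of the Jagged ligands in all libraries. JAG1 took 56.7% of the summed ligand FPKM in 5637P and 46.3% and 62.4% in the 5637GR libraries. JAG2 took 38.4% against 39.2% and 28.2%. DLL1 took 4.71% in 5637P and 13.8% and 8.97% in the 5637GR libraries, and in the group means 10.0% and 13.0%. The summed ligand FPKM was 139 in 5637P and 74.2 and 117 in the 5637GR libraries. Both JAG1 and JAG2 were lower per length in each 5637GR library than in 5637P. JAG1 was at 34.4 and 72.9 FPKM in libraries 1 and 2 against 78.6, and JAG2 at 29.1 and 32.9 FPKM against 53.2.

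HES1 (ENSG00000114315, chromosome 3, 193853934 to 193856521, plus strand), a basic helix-loop-helix repressor whose promoter is printed above, was read at 71.5 CPM in 5637P and at 56.2 and 64.7 CPM in the 5637GR libraries. The reads were 1007, 919 and 1124 in the same order. Both 5637GR libraries were below 5637P, at 0.786 and 0.906 of it. For HES1 the log2 change was -0.24 ± 0.35 (SE; adjusted p = 0.926, edgeR), and the group means (967.5 and 925.7) had a log2 ratio of -0.06.

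NRARP (ENSG00000198435, chromosome 9, 140194083 to 140196703, minus strand), an ankyrin-repeat protein that limits Notch signalling, was read at 19.9 CPM in 5637P and at 31.5 and 25.4 CPM in the 5637GR libraries. It had 280, 515 and 441 reads. Both 5637GR libraries were above 5637P, and the log2 change of 0.52 ± 0.38 (SE) had an adjusted p of 0.767 (edgeR). The group means of 332.3 and 347.6 gave a log2 ratio of 0.06.

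HEY1 (ENSG00000164683, chromosome 8, 80676245 to 80680098, minus strand), a repressor related to the HES proteins, was close to the limit of what could be compared. It had 23 reads in 5637P and 22 and 34 in the 5637GR libraries, or 1.63 CPM against 1.35 and 1.96 CPM. The 5637GR libraries lay on either side of 5637P, and the counting intervals of all 3 overlapped. The log2 change was 0.02 ± 0.70 (SE; adjusted p = 0.999, edgeR), so that a difference was not detectable at this depth. With 19.3 normalized counts in the parental and 20.3 in the resistant group mean, the log2 ratio was 0.07.

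**Figure D3:**
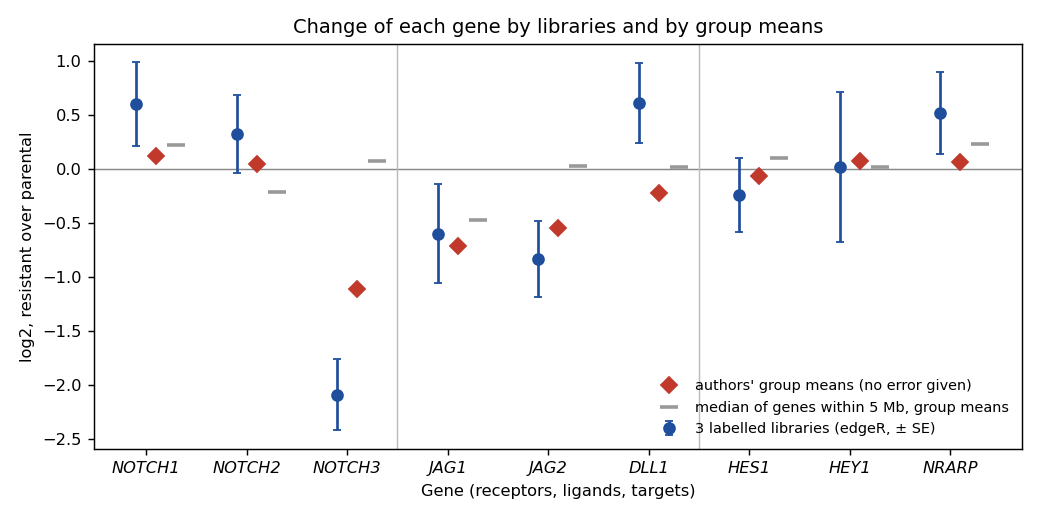
Log2 of resistant over parental for each gene, as the edgeR estimate from the 3 labelled libraries with its SE (circles), as the ratio of the deposited group means with a pseudocount of 1 added (diamonds), and as the median of that ratio over genes within 5 Mb (dashes). NOTCH3 is lowest by both measures, at -2.09 and -1.12, and DLL1 changes sign between them, at 0.61 and -0.23.

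Per length, the order of the 9 genes was led by JAG1, JAG2 and HES1 in 5637P, at 78.6, 53.2 and 44.1 FPKM. In 5637GR library 1 the same genes were at 34.4, 29.1 and 36.8 FPKM, and in library 2 at 72.9, 32.9 and 40.8 FPKM. HES1 was above JAG1 in 5637GR library 1 and below it in library 2, so these neighbours in the order did not differ beyond the spread of the resistant pair. In 5637P, NOTCH3 followed them at 18.6 FPKM, above NOTCH1 at 13.7 and NOTCH2 at 10.8 FPKM. In both 5637GR libraries it was below every other gene of the set except HEY1, at 4.75 and 4.33 FPKM. NOTCH1 led the receptors there, at 25.6 and 17.9 FPKM, followed by NOTCH2 at 13.4 and 14.8 FPKM. DLL1 and NRARP exchanged places between the 5637GR libraries, at 10.3 and 12.4 FPKM in library 1 and at 10.5 and 9.64 FPKM in library 2. HEY1 was the lowest in all 3, at 0.605 to 0.848 FPKM.

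To show how nearby genes differed, each gene was set beside the genes that start within 5 Mb of it. The 239 neighbours of NOTCH3 had a median log2 ratio of the group means of 0.07, and only 2 of them were lower than NOTCH3. In the labelled libraries the median over these neighbours was -0.31 in 5637GR library 1 and 0.27 in library 2, both relative to 5637P. NOTCH3 itself was at -2.05 and -2.13 on the same scale. The 20 neighbours of JAG1 had a median of -0.47, and 18 of them were lower in the resistant group. JAG1, at -0.72, was lower than 17 of the 20, and with a 2 Mb window the median was -0.24. In the labelled libraries the neighbours of JAG1 had a median of -0.59 in 5637GR library 1 and -0.54 in library 2, whereas JAG1 was at -1.28 and -0.14. The part of these neighbourhoods in the values of the genes was not tested, and DNA was not measured.

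NOTCH1 and NRARP lie close to each other near the end of chromosome 9 and largely share their neighbours. The 104 neighbours of NOTCH1 had a median log2 ratio of 0.22, with 77 higher in the resistant group, and the 100 neighbours of NRARP a median of 0.23. NOTCH1, at 0.12, and NRARP, at 0.06, were both below these medians in the group means. With a 10 Mb window the medians were 0.045 and 0.047, below both genes, and with a 2 Mb window they were 0.42. In the labelled libraries NOTCH1 was at 0.81 and 0.35 and NRARP at 0.66 and 0.35, above neighbour medians of 0.20 and 0.29 for NOTCH1 and of 0.20 and 0.32 for NRARP. For JAG2 the median of 60 neighbours was 0.03, and 52 of them were higher than JAG2. The neighbours of NOTCH2 had a median of -0.21 over 26 genes, with NOTCH2 at 0.04, and with windows of 2 and 10 Mb the median was -0.076 and -0.046. The medians around DLL1, HES1 and HEY1 were 0.02, 0.10 and 0.01, over 18, 54 and 20 genes.

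**Figure D4:**
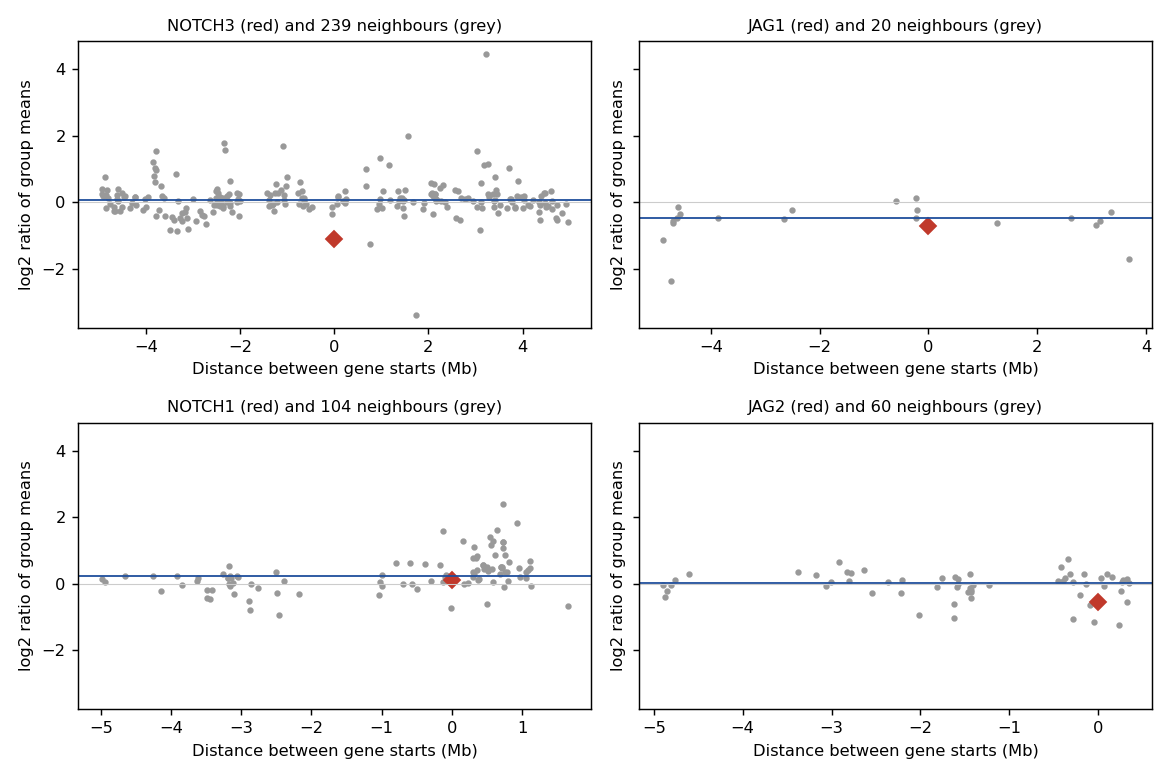
Resistant over parental, as the log2 ratio of the deposited group means, against the distance between gene starts in Mb, for NOTCH3, JAG1, NOTCH1 and JAG2 (red diamonds) and the genes within 5 Mb (grey points), with the median of the neighbours as a blue line. NOTCH3 lies at -1.12 under a median of 0.07, and JAG1 at -0.72 near a median of -0.47.

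The rest of the pathway was described from a list of 45 genes by role, of which 44 were found in the table and 40 had enough reads to be tested. None of the 40 passed edgeR's quasi-likelihood test, where 0.876% of all genes were called. At an unadjusted p under 0.05 there were 3, beside 9.7% of all genes, and DESeq2 called 1. Both 5637GR libraries were higher than 5637P for 14 of the 40 and lower for 13, where the shares over all genes were 35.2% and 34.5%. In the group means 36 of the 44 had a mean of at least 10, and 21 of these were higher and 15 lower in the resistant group. Their median log2 ratio was 0.02, beside 0.01 over all 14630 genes. A ratio of 2-fold or more was reached by 4 of the 36, which were HES7, MFNG, APH1B and DTX4, beside 6.36% of all genes.

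HES7 (ENSG00000179111, chromosome 17), a HES-family repressor known from the segmentation clock of the embryo, was higher in both 5637GR libraries. It had 11 reads in 5637P and 86 and 187 in the 5637GR libraries, or 0.781 CPM against 5.26 and 10.8 CPM. The counting intervals of the 3 libraries did not overlap one another. The log2 change was 3.35 ± 0.71 (SE; edgeR, adjusted p = 0.074, unadjusted p = 0.00086). DESeq2 gave an adjusted p of 0.0094, and over the alternatives that could be tested the adjusted p ranged from 0.00019 to 0.027. The group means were 23.9 and 82.4 normalized counts, a log2 ratio of 1.74, and 5637P held 0.492 of the mean of its group. Of the 7 listed further targets, HES5, HEY2 and HEYL had at most 1 read in any library. HES4 was the highest per length, at 86.2 FPKM in 5637P and 53.7 and 66.1 in the 5637GR libraries. Its log2 change was -0.58 ± 0.35 (SE; adjusted p = 0.684, edgeR), and its group means of 1243 in both groups gave a log2 ratio of 0.0007.

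Among enzymes that modify the receptor, LFNG, a fringe glycosyltransferase that tunes the response to Delta-like and Jagged ligands, was the highest, at 87.7 FPKM in 5637P and 95.8 and 91.7 in the 5637GR libraries. Its log2 change was 0.04 ± 0.36 (SE; adjusted p = 0.994, edgeR). MFNG, another fringe enzyme, averaged 93.1 normalized counts in the parental and 37.9 in the resistant group, a log2 ratio of -1.28. In the labelled libraries it was read with 66, 31 and 79 reads in 5637P and 5637GR libraries 1 and 2. 5637GR library 2 was at 4.55 CPM, beside 4.68 CPM in 5637P, and the log2 change was -0.54 ± 0.63 (SE; adjusted p = 0.901, edgeR).

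All 8 genes of the cleavage machinery had reads in every library, and 4 were higher and 4 lower in the group means. PSENEN, named after its values were seen, was low, with 22 reads in 5637P and 29 and 31 in the 5637GR libraries. APH1A, a γ-secretase subunit, was the highest, at 40.2 FPKM in 5637P and 53.7 and 56.2 in the 5637GR libraries, with a log2 change of 0.39 ± 0.36 (SE; adjusted p = 0.841, edgeR). Its alternative subunit APH1B was much lower, with 29, 21 and 12 reads. The log2 ratio of its group means was -1.44, and the log2 change in the libraries -1.06 ± 0.74 (SE; adjusted p = 0.744, edgeR).

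Of the nuclear factors, KDM5A, a histone demethylase, averaged 855.5 normalized counts in the parental and 483.3 in the resistant group, a log2 ratio of -0.82, and 55.1 CPM against 39.3 and 23.0 CPM in the libraries. Its log2 change of -0.82 ± 0.40 (SE) had an adjusted p of 0.563 (edgeR). RBPJ was chosen after its values were seen, as the DNA-binding factor of the pathway. It was read at 60.9 CPM in 5637P and at 103 and 86.6 CPM in the 5637GR libraries, with a log2 change of 0.64 ± 0.36 (SE; adjusted p = 0.654, edgeR). Its log2 ratio in the group means was 0.56, and that of its 14 neighbours within 5 Mb on chromosome 4 had a median of 0.51.

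Among inhibitors and turnover factors, DTX4, an E3 ligase of the Deltex family, was lower in both 5637GR libraries, at 172 CPM in 5637P and 106 and 92.8 CPM in the 5637GR libraries. The log2 change was -0.79 ± 0.35 (SE; edgeR, adjusted p = 0.5, unadjusted p = 0.046), and the log2 ratio of the group means was -1.06. The 91 neighbours of DTX4 on chromosome 11 had a median of -0.49. DTX2, of the same family, was the highest of this group, at 52.4 FPKM in 5637P and 61.5 and 79.0 in the 5637GR libraries. MIB2, a ligase for the uptake of ligands, was at 22.9 FPKM against 30.3 and 40.8, and its log2 change of 0.58 ± 0.39 (SE) had an adjusted p of 0.724 (edgeR). DLK2, a noncanonical ligand, had a log2 ratio of 0.15 in the group means and of -0.36 ± 0.46 (SE; adjusted p = 0.909, edgeR) in the libraries, with the opposite sign. NOTCH4, DLL3, DLL4 and NEURL1, also named after their values were seen, had at most 21 reads in any library.

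**Figure D5:**
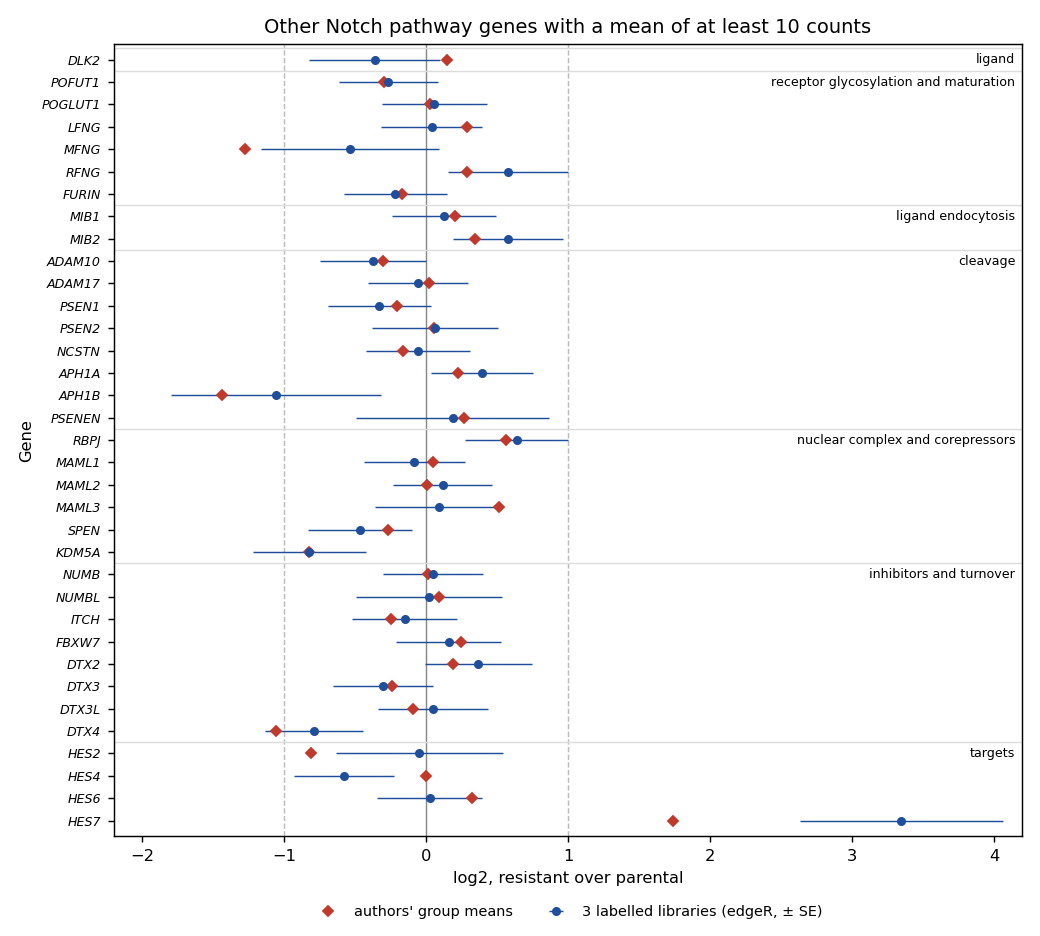
Log2 of resistant over parental for 35 of the 36 further pathway genes with a mean of at least 10 normalized counts, grouped by role, from the 3 labelled libraries (edgeR estimate with SE, circles) and from the authors' group means (diamonds). Dashed lines mark 2-fold, which HES7, MFNG, APH1B and DTX4 reach in the group means.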

How the data were processed

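The authors deposited raw read counts per gene and library, FPKM, and group means. Per the file headers, the FPKM values divide each count by gene length and by the library's reads on genes. The group signal is the authors' mean of size-factor normalized counts. CASAVA 1.8 and hg19 are named in the submitters' processing notes, and the aligner and counter are not given in the sources used here. The 6 per-library columns without a sample label here and the authors' log2 fold changes, p-values and adjusted p-values were not used.

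Counts of 1 parental and 2 resistant libraries were filtered with filterByExpr, scaled by TMM and fitted by edgeR's quasi-likelihood test (edgeR 4.0.16, R 4.3.3) with group as the only term and Benjamini-Hochberg adjustment. The fit had 1 residual degree of freedom per gene, and moderation added 8.94 prior degrees of freedom from the spread over all genes. The fit was also run on simulated data, and no result given here rests on that run. Group means were compared as log2 ratios after a pseudocount of 1, for genes whose mean was at least 10. Genes of the set were named in full. Further pathway genes were named when past a threshold, highest per length or most changed within their role. A gene that this rule also named is not reported here. The genes and lists were chosen with earlier results of these data known. DESeq2 1.42.0, its size factors, no filter, other pseudocounts, thresholds and windows, and leaving out a library were alternatives. Other steps used pandas 2.3.3, scipy 1.17.1 and matplotlib 3.10.9 under Python 3.11.15.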

Additional observations from a re-analysis of the deposited data

How the results depend on the processing

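No paired analysis was made, because the libraries come from separate clones and the labels name no pairs. The count of 137 genes called in the libraries became 235 with DESeq2 size factors, 534 without the filter and 245 with DESeq2, and the count of further pathway genes went from 0 to 1 (HES7) under each of these. NOTCH3 remained the single gene of the 9 called under all 3, with adjusted p-values from 3.7e-06 to 0.0057 (edgeR or DESeq2). Leaving out a resistant library left 1 against 1 and no test, and leaving out the parental library left no comparison. Without resistant library 1 or 2 the log2 change of HEY1 was 0.26 or -0.28, against 0.02 from 3 libraries. Without resistant library 1 or 2, NOTCH3 was at -2.13 or -2.05.

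The count of genes 2-fold apart in the group means went from 931 to 2881 without the filter, 470 at a mean of at least 50, 1757 in the 3 labelled libraries and 2714 at 1.5-fold. At 1.5-fold 2 of the 9 genes passed, and 7 pathway genes passed 2-fold without the filter, up from 4. From the labelled libraries the median of the 9 genes was 0.016 in place of -0.064, and DLL1 (0.61), DLK2 (-0.36) and HES4 (-0.58) had the opposite sign to the group means. The cause was not tested. The median of neighbours turned to -0.0037 for JAG2 and -0.13 for HEY1 with a 2 Mb window. In the labelled libraries, a choice made after seeing the data, it was -0.082 for JAG2, -0.034 for DLL1 and -0.13 for HEY1. Of 60 tests of single genes under other settings, 57 kept their direction and their side of the threshold, and the other 3 were those of HES7. With a 2 Mb window the neighbour median was 0.42 for NOTCH1 and NRARP, -0.076 for NOTCH2 and -0.24 for JAG1, and with 10 Mb it was 0.045, 0.047 and -0.046 for NOTCH1, NRARP and NOTCH2 and 0.13 for HEY1. For NOTCH2 it was -0.035 in the labelled libraries.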
